A study of Mus musculus with 6 samples.

Results

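Among 13839 genes measured in mouse MLL-ENL-ERtm leukaemia cells, 65 (0.470%) had a mean below 1 FPKM (a read count divided by transcript length and by sequencing depth) in the 3 control libraries, a mean of at least 2 FPKM in the 3 Tet1 knockdown libraries, and no control library as high as the lowest knockdown library. These 3 conditions chose the 65 genes from the comparison itself, so their differences between the groups are given as a description, without a test. Few of the 65 were silent in the control: 48 had at least 10 reads in every control library and 0 had no read in all 3, so they are called low-level genes here and not silent ones. The cells are a mouse leukaemia line with the MLL-ENL fusion gene, classed by the labels as acute monocytic leukaemia, and each library holds polyadenylated RNA sequenced as 51-bp single-end reads. Both groups had received a pGFP-V-RS retrovirus, were selected with puromycin at 1 µg/mL for 3 passages and were adapted to SILAC medium; shTet1 carried the hairpin construct against Tet1 (shTet1-a+b of an earlier study) and shNS a non-specific control hairpin. All 6 libraries come from the same line and the same control hairpin or Tet1 construct, and no label says whether the 3 libraries of a group were separate cultures. P-values for other genes thus rest on the variation among 6 libraries, part or all of which may be technical.

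Tet1 oxidises 5-methylcytosine in DNA, a mark that, when it lies in CpG-rich promoters, goes with silent genes. Myeloid cells that mature towards macrophages gain cell-surface receptors, lysosomal proteases, secreted matrix proteases and genes of the interferon response, and lose genes of the progenitor state. Immune receptors and secreted proteins of this kind often lie in the genome as clusters of related copies. In bulk RNA a lower level can mean fewer cells of a type or less RNA per cell, and these cannot be told apart.

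The promoters of Plcb1 and Mical3, which are among the genes with the largest folds, and of a neighbouring gene pair are shown first. The reason is that the base composition of this region is among the features that the choice of the genes did not use. Gspt2, which had the largest fold, had no entry in the promoter table used. Each sequence is the 250 bases before a RefSeq start on GRCm38.p6, the most upstream one in the promoter table used, which for Mical3 and Ms4a4c lies inside the annotated span of the gene; it is written 5′ to 3′ on the strand of the gene. In Plcb1 and Mical3, CpG dinucleotides are in capitals, 22 and 12 of them. In Ms4a4b and Ms4a4c, which lie next to each other on chromosome 19 and hold 0 CpG in these windows, capitals mark their longest identical stretch of 20 bases.
Plcb1 (chr2:134785914-134786163, plus strand): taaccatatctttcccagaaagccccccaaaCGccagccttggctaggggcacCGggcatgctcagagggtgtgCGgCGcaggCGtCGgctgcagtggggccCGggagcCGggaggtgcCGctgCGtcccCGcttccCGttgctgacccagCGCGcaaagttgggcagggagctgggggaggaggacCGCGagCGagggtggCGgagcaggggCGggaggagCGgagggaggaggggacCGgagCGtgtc
Mical3 (chr6:121131023-121131272, minus strand): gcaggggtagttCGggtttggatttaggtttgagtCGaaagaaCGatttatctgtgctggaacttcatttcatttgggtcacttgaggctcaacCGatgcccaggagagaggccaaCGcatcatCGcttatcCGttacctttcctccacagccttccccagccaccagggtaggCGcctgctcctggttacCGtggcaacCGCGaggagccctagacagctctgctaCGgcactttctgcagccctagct
Ms4a4b (chr19:11443308-11443557, plus strand): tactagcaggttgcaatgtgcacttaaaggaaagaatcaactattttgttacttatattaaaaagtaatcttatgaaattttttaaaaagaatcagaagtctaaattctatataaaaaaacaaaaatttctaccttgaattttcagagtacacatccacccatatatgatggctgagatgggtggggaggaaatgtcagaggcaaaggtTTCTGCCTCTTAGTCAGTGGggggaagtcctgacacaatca
Ms4a4c (chr19:11407411-11407660, plus strand): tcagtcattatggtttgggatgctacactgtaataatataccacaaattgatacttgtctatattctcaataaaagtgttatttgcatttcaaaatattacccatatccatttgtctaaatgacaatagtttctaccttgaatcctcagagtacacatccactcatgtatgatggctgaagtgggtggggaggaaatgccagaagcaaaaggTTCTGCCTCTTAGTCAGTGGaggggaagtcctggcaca

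A further set of 3 shows a short motif near the start of a secreted or interferon-stimulated gene. Capitals mark a match to the C/EBP motif TTGCNNAA in Saa1, to the AP-1 motif TGANTCA in Mmp13, and to the IRF-type repeat in Gbp2b, which is GAAA, 2 bases of any kind and GAAA again, here on the opposite strand. For Saa1 and Gbp2b too the start used lies inside the annotated span of the gene, so part of each window is within that span. The marked match of Saa1 lies in that part. A match is a run of letters and not a measured binding site.
Saa1 (chr7:46742981-46743230, minus strand): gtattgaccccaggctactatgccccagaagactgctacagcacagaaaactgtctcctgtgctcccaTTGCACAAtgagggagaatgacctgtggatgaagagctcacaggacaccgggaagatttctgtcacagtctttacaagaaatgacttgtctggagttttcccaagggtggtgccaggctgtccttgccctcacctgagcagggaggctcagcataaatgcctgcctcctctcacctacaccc
Mmp13 (chr9:7272264-7272513, plus strand): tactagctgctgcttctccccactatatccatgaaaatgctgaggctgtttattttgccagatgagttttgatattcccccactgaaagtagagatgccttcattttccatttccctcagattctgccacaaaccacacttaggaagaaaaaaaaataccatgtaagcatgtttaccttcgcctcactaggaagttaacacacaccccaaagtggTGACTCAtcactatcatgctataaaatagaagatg
Gbp2b (chr3:142594597-142594846, plus strand): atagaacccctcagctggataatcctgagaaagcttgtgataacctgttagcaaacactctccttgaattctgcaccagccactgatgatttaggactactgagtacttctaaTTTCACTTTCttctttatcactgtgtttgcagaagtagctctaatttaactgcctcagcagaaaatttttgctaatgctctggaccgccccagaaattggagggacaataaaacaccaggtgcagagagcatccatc

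The libraries held between 15873632 and 18592139 reads on the genes of the table. Tet1 itself stood at 0.442 ± 0.0487 FPKM in shNS and 0.131 ± 0.0294 in shTet1 (SD, n = 3 each), which is 29.6% of the control level, and lay below the filter for testing in every library. Monocyte and macrophage markers summed to 511 to 585 FPKM in shNS and 1604 to 2042 in shTet1. The 12 of 14 that were tested were all higher (limma, adjusted p under 0.05), against 19.4% of all genes tested. Mertk belongs both to these markers and to the 65 genes, so its call followed from the choice. Cx3cr1, at 0.524 ± 0.129 and 1.53 ± 0.464 FPKM, passed the filter through shTet1 alone. Not tested were Marco, at 0.660 ± 0.185 and 1.69 ± 0.960, and Cd163, at 0.347 ± 0.0604 and 0.236 ± 0.0483. Eosinophil markers, among them the chosen gene Ear6, summed to 37.8 to 50.1 FPKM in shNS and 135 to 156 in shTet1. Most of that sum lay in Ear2, which rose from 29.1 ± 4.79 to 115 ± 8.65 FPKM by limma, whereas Siglec5 fell from 7.03 ± 0.697 to 3.52 ± 0.787 and Prg2 was at 1.77 ± 0.756 and 1.86 ± 1.32. Mast cell and basophil markers summed to 204 to 227 and 72.8 to 96.3, and megakaryocyte and platelet markers to 134 to 143 and 97.6 to 111. Most of the former sum lay in Mcpt8, at 139.8 ± 6.80 FPKM in shNS and 43.2 ± 6.63 in shTet1, while Kit and Hdc were not called. Most of the latter lay in Pf4, which was not called, at 80.4 ± 8.14 and 79.8 ± 8.79. Of 5 megakaryocyte and platelet markers tested, 3 were lower by limma and 1, Vwf, was higher. Neutrophil markers summed to 4228 to 5565 FPKM in shNS and 3064 to 6354 in shTet1; of 9 tested, Mmp8 was higher and 5 were lower (Ltf, Ngp, Camp, Retnlg and S100a9). No marker of any list present in the table was at 0 in every library. The summed levels in the other lists were 132 to 161 against 185 to 245 FPKM for dendritic cells, 87.8 to 117 against 43.7 to 55.4 for erythroid cells, 5.83 to 6.76 against 2.80 to 3.78 for T and NK cells, 2.34 to 2.93 against 1.28 to 1.39 for B cells, and 29.5 to 33.6 against 19.9 to 23.4 for stromal, endothelial and epithelial cells. Single genes carried most of some of these sums. In the erythroid list this was Tfrc, at 98.4 ± 14.3 FPKM in shNS and 47.5 ± 6.16 in shTet1. In the stromal, endothelial and epithelial list it was Pecam1, at 31.3 ± 2.07 and 21.3 ± 1.76. In the dendritic list it was Cd74, at 112 ± 15.4 and 187 ± 29.2. Of 5 dendritic markers tested 2 were higher by limma and 1, Flt3, was lower. The part of other cell types in the levels of the 65 genes was not tested.

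The 65 genes remained at modest levels after the knockdown. Their shNS means ran from 0.0317 to 0.999 FPKM with a median of 0.684, and their shTet1 means from 2.0 to 9.60 FPKM with a median of 2.52. All 65 shTet1 means lay below 11.3 FPKM, the median shTet1 mean of the genes tested, and 2 of them, Saa1 and Ms4a4c, were at 5 FPKM or more. The fold between group means had a median of 4.23 and a range of 2.39 to 66.1; it was at least 10 for 10 genes and under 3 for 15. Single libraries gave a gene a median of 28.0 reads in shNS (0 to 123) and 124 in shTet1 (17 to 488), so the counting error was widest for the lowest control values. Of 2306 genes with an shNS mean below 1 FPKM, 65 (2.82%) reached a mean of 2 in shTet1, and none of these overlapped between the groups; in all 2306, every shTet1 library lay above every shNS library for 22.4%. With limma, 64 of the 65 passed the filter of 1 FPKM in at least 3 libraries, 45 of them through the shTet1 libraries alone, and 64 were called higher, where 19.4% of all genes tested were called so. Since the choice used the same values, nothing is read from that count. The authors' deposited table gave all 65 an adjusted p under 0.05, the highest being 0.000297, and folds of 2.61 to 68.6; at that threshold 23.7% of all its genes were higher in shTet1.

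**Figure D1:**
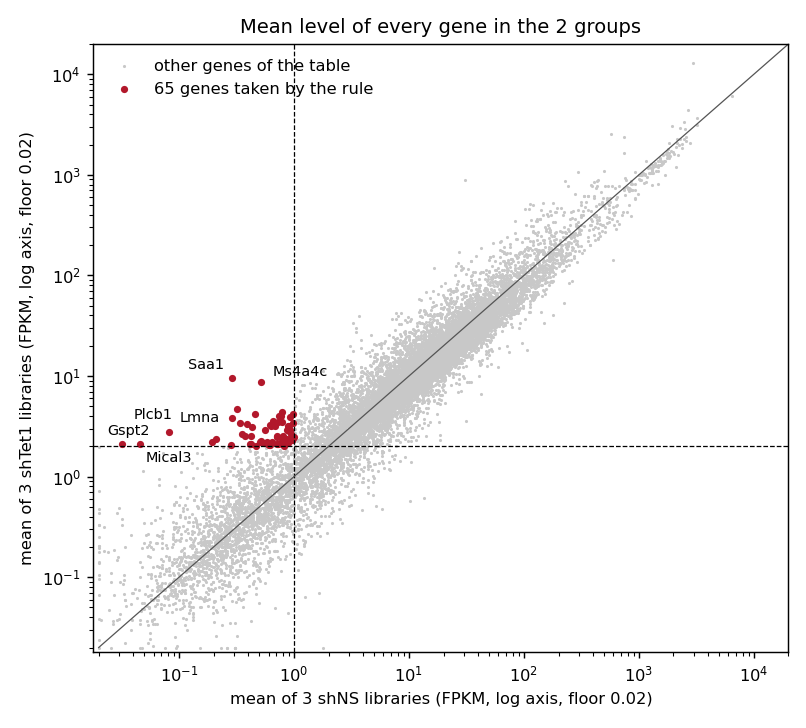
Mean FPKM in shNS (horizontal) and shTet1 (vertical) for each gene of the table, both on log axes; red points are the 65 genes, dashed lines mark 1 and 2 FPKM and the solid line marks equal levels. The red points fill the corner above 2 FPKM and left of 1 FPKM, with Saa1 highest at 9.60 FPKM and Gspt2 farthest left at 0.0317 FPKM.

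The most extreme ratios belonged to 4 genes whose control libraries held few reads, singled out after their values were seen. Gspt2 (chromosome X, 94636069 to 94638562, GRCm38.p6), an intronless relative of Gspt1 that encodes a translation release factor, had 0, 0 and 4 reads in shNS replicates 1 to 3 and 119, 128 and 30 in shTet1. It was the sole one of the 65 with a control library at 0, and its shTet1 replicate 3 held far fewer reads than the other knockdown libraries. Summed over libraries and scaled for depth, the ratio was 70.0, with a 95% interval of 27.1 to 259. Mical3 (chromosome 6, 120931546 to 121173757), a flavoprotein monooxygenase that acts on actin filaments, had 11, 7 and 6 reads in shNS and 301, 352 and 403 in shTet1, a ratio of 44.5 (29.7 to 69.8). Plcb1 (chromosome 2, 134786164 to 135475258), a phospholipase C that acts downstream of G-protein-coupled receptors, had 14, 5 and 12 reads in shNS and 343, 392 and 298 in shTet1, a ratio of 33.7 (23.6 to 49.9). For both, all 3 shTet1 libraries lay far above the control. Saa1 had 2, 4 and 3 reads in shNS and 151, 130 and 29 in shTet1, a ratio of 34.8 (18.1 to 76.9). These intervals cover counting error only. How reads that fit several copies of a gene were counted is not given in the sources used here, so the split between Gspt2 and its relative, and between other near-identical copies named here, is uncertain.

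Secreted and matrix proteins made up 8 of the 65, with folds of 2.40 to 33.5. Saa1 (chromosome 7, 46740497 to 46743181), an acute-phase apolipoprotein, was the most abundant of all in the knockdown: it stood at 0.177, 0.391 and 0.293 FPKM in shNS, in replicate order, and at 13.8, 12 and 3.01 in shTet1. Replicates 1 and 2 of the knockdown were close while replicate 3 was several times lower, yet all 3 lay above the control. Saa3, its relative on the same chromosome and not one of the 65, had the same order of knockdown libraries at a much higher level, with 30.3, 33.4 and 28.1 FPKM in shNS and 1277, 1107 and 290.5 in shTet1 (log2 change 4.56 with SE 0.49 by limma, adjusted p = 0.000283). Mmp13, a collagenase, stood at 0.744, 0.399 and 0.531 FPKM in shNS and 2.48, 3.50 and 2.68 in shTet1. Mmp27, another matrix metalloproteinase, stood at 0.325, 0.537 and 1.00 FPKM and at 2.51, 2.30 and 1.33, so that its highest control and its lowest knockdown library nearly met. Cp, the copper-carrying ferroxidase ceruloplasmin, was narrow in both groups, at 0.957, 0.872 and 0.852 FPKM and 2.24, 2.17 and 2.04.

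Ear6 and Ear7, ribonucleases of the eosinophil-associated family, had the same number of reads in every library and therefore count as 1 measurement. Ear7 stood at 0.919, 0.887 and 0.886 FPKM in shNS and 2.01, 2.88 and 4.71 in shTet1, and Ear6 at 0.604, 0.583 and 0.582 and at 1.32, 1.89 and 3.10. The control libraries were almost equal and the knockdown libraries spread by more than the step from control to the lowest of them. Smoc1, a calcium-binding matrix protein of the SPARC family, stood at 0.242, 0.167 and 0.60 FPKM in shNS and at 3.35, 2.92 and 3.86 in shTet1, well apart in every library. The nonagouti gene, which encodes an antagonist of melanocortin receptors, was the remaining one of this group.

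Both lysosomal proteases among the 65 had small spreads. Lgmn, the asparaginyl endopeptidase legumain, stood at 0.229, 0.348 and 0.379 FPKM in shNS and at 3.87, 4.79 and 5.58 in shTet1, a fold of 14.9. Ctsk, a collagen-degrading cathepsin best known from osteoclasts, stood at 0.306, 0.412 and 0.337 FPKM and at 2.66, 3.08 and 2.27, a fold of 7.60. In neither gene did the groups come near each other, and replicate 3 of the knockdown was the highest for Lgmn and the lowest for Ctsk.

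Surface receptors and membrane proteins were the largest group, with 16 genes and folds of 2.39 to 16.9. Ms4a4c, Ms4a7 and Ms4a4b encode 4-pass membrane proteins of the MS4A family and lie side by side on chromosome 19, between 11321039 and 11463549, with gaps of 68570 and 16311 bp. No others of the 65 were immediate neighbours within 100 kb. Ms4a4c stood at 0.562, 0.619 and 0.378 FPKM in shNS and at 13.1, 9.77 and 3.44 in shTet1, a fold of 16.9. Ms4a7 stood at 0.689, 0.380 and 0.311 FPKM and at 5.42, 4.42 and 2.72, and Ms4a4b at 0.812, 1.08 and 0.424 FPKM and at 4.40, 5.0 and 2.60. Replicate 3 was the lowest knockdown library for each of these and also the lowest control library. Next to Ms4a4b, the related Ms4a6c, outside the rule, rose from 16.5 ± 1.53 to 119 ± 35.6 FPKM (log2 change 2.73 with SE 0.21 by limma, adjusted p = 8.29e-05). Ms4a3, a family member of granulocyte progenitors, fell from 397 ± 40 to 288 ± 25.9 FPKM (log2 change −0.46 with SE 0.11 by limma, adjusted p = 0.00771).

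Other receptors were lower. Gpr35, a G-protein-coupled receptor, stood at 1.05, 1.11 and 0.632 FPKM in shNS and at 4.34, 4.52 and 2.88 in shTet1. Among immunoglobulin-like receptors, Treml4 stood at 1.01, 0.905 and 1.01 FPKM and at 2.93, 2.52 and 1.87, Lilra5 at 0.535, 0.815 and 0.281 and at 2.57, 2.37 and 1.55, and Treml1, known from platelet granules, at 0.580, 0.426 and 0.243 and at 2.36, 2.34 and 1.62. Replicate 3 was again the lowest knockdown library for all of these. Mertk, a receptor tyrosine kinase for the uptake of dying cells, stood at 0.439, 0.650 and 0.300 FPKM and at 2.21, 2.29 and 1.58. H60c, a ligand of the NKG2D receptor, stood at 0.916, 1.01 and 1.07 FPKM and at 3.22, 2.47 and 1.79, and Tmem218 at 1.16, 0.814 and 0.464 and at 2.06, 1.60 and 2.35. The other 6 were Ptpro, a receptor tyrosine phosphatase with a fold of 11.4; Pmp22, a myelin membrane protein (6.84); Ly86, the partner of the RP105 receptor (6.02); Sdc1, a heparan sulphate proteoglycan (5.05); Cd22, an inhibitory siglec of B cells (4.42); and Lhfp (2.39).

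Channels and transporters numbered 6, with folds of 2.61 to 11.1. Slc44a1, a choline transporter, had the smallest knockdown spread of these, at 0.836, 0.940 and 0.560 FPKM in shNS and 3.63, 3.46 and 3.36 in shTet1. Abca9, an ABC transporter, was at 0.180, 0.218 and 0.236 FPKM and at 3.41, 2.49 and 1.17, so its knockdown libraries covered a wide range. Cacna1d and Cacna1f encode pore subunits of L-type calcium channels. Cacna1d stood at 0.259, 0.253 and 0.335 FPKM and at 2.49, 2.32 and 1.36, and Cacna1f at 0.788, 1.13 and 0.682 and at 2.16, 2.16 and 2.46. Kcne3, an accessory subunit of potassium channels, stood at 0.907, 0.829 and 0.884 FPKM and at 2.77, 1.81 and 2.58. Slc22a4, a carrier of organic cations and ergothioneine, stood at 0.428, 0.393 and 0.445 FPKM and at 1.76, 2.24 and 2.34. Its relative and neighbour Slc22a21, chosen after its values were seen, was at 1.52 ± 0.163 and 1.20 ± 0.311 FPKM (log2 change −0.20 with SE 0.13 by limma, adjusted p = 0.229).

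Signalling and cytoskeletal genes numbered 12, with folds of 2.78 to 45.4. Pld2, a phospholipase D, stood at 1.05, 0.843 and 1.06 FPKM in shNS and at 4.33, 4.39 and 3.77 in shTet1. Cttnbp2nl stood at 0.843, 0.825 and 0.546 FPKM and at 4.07, 4.68 and 3.12. Gng11, a G-protein gamma subunit, was even in both groups, at 0.385, 0.354 and 0.424 FPKM and 3.57, 3.22 and 3.24. Arhgap24, a GTPase-activating protein, stood at 0.676, 0.593 and 0.592 FPKM and at 2.93, 2.68 and 4.16, and Rab19, a small GTPase of vesicle traffic, at 1.14, 0.763 and 0.807 and at 2.68, 2.72 and 3.19. In both, replicate 3 was the highest knockdown library. Aif1, a calcium-binding protein of macrophages and microglia, went the other way, at 0.737, 0.745 and 1.15 FPKM in shNS and 3.98, 3.98 and 1.66 in shTet1. The levels of Mical3 and Plcb1 in shTet1 averaged 2.09 ± 0.449 and 2.80 ± 0.254 FPKM. The remaining genes were Cdkl2 (fold 2.78), Cdc42bpg (2.84) and Sash1 (3.12), which encode kinases or adaptors of signalling, and Fam49a (3.48).

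Interferon-stimulated and related genes numbered 4 and had folds within a narrow range of 3.14 to 3.46. Rtp4 stood at 1.37, 0.452 and 1.13 FPKM in shNS and at 3.69, 4.39 and 2.12 in shTet1. Gbp2b, a guanylate-binding GTPase whose promoter is printed above, stood at 1.33, 0.757 and 0.693 FPKM and at 3.83, 2.63 and 2.30. Mx1, an antiviral dynamin-like GTPase, stood at 0.868, 0.492 and 0.464 FPKM and at 2.51, 2.43 and 1.16. Phf11a stood at 1.03, 0.657 and 0.962 FPKM and at 3.31, 3.52 and 2.09. All 4 were lowest in replicate 3 of the knockdown, at 0.470 to 0.713 of the mean of its other libraries. Of exonic bases of Rtp4, 13.9% are shared with a predicted gene on the same strand (Gm45338), so part of its reads cannot be assigned.

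Transcription factors numbered 6. Bcl6, a zinc finger repressor, spread over a wide range in the knockdown, with 0.835, 0.650 and 0.703 FPKM in shNS and 5.96, 3.14 and 1.48 in shTet1. Epas1, the hypoxia-inducible factor HIF-2 alpha, stood at 0.934, 0.864 and 0.808 FPKM and at 2.90, 3.43 and 2.42. Zfp503, a zinc finger protein, stood at 0.868, 1.06 and 0.942 FPKM and at 2.59, 2.42 and 1.94, and Hivep3, a large zinc finger protein, at 0.346, 0.808 and 0.794 and at 1.29, 3.04 and 2.34. Replicate 3 was the lowest knockdown library in 5 of the 6 genes, Hivep3 being the exception. Nkx6-2, a homeobox factor of neural cells, stood at 0.837, 0.724 and 0.872 FPKM and at 2.07, 2.10 and 1.96. It overlaps Inpp5a, which rose from 7.14 ± 0.944 to 19.1 ± 1.54 FPKM (log2 change 1.31 with SE 0.11 by limma, adjusted p = 0.000104), and shares 12.9% of its exonic bases with it on the opposite strand. Whether the counting used strand is not stated, so reads of Nkx6-2 and Inpp5a may not be told apart.

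The other 11 genes were of mixed roles. Lmna, which encodes the nuclear lamins A and C, had the opposite order of knockdown libraries to Saa1: it stood at 0.187, 0.257 and 0.428 FPKM in shNS and at 1.57, 3.85 and 5.99 in shTet1, lowest in replicate 1 and highest in replicate 3 in both groups. Ankrd55, an ankyrin repeat protein, stood at 0.901, 0.798 and 0.647 FPKM and at 5.02, 3.48 and 4.61, and the unnamed Gm20748 at 1.07, 0.592 and 0.296 and at 4.33, 3.46 and 2.83. Gspt2 stood at 0, 0 and 0.0950 FPKM and at 2.64, 2.88 and 0.758. Polm, the DNA repair polymerase mu, had a fold of 2.56, Fbxw24, an F-box protein, 3.52, and Rwdd2a 2.94. The metabolic enzymes were Nat8l, which makes N-acetylaspartate (3.83), Pdk2, a kinase that inhibits pyruvate dehydrogenase (2.94), and Gdpd1 (2.67). A730085K08Rik shares 47.2% of its exonic bases with Abhd5 on the opposite strand. Abhd5, which activates triglyceride lipolysis, rose from 27.0 ± 0.576 to 39.0 ± 1.91 FPKM (log2 change 0.51 with SE 0.08 by limma, adjusted p = 0.00102), far above the 2.25 ± 0.214 FPKM of A730085K08Rik, so its reads cannot be assigned with certainty. Of 63 genes found in the GENCODE annotation, 42 shared no exonic base with another gene and this was the sole one that shared 20% or more.

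**Figure D2:**
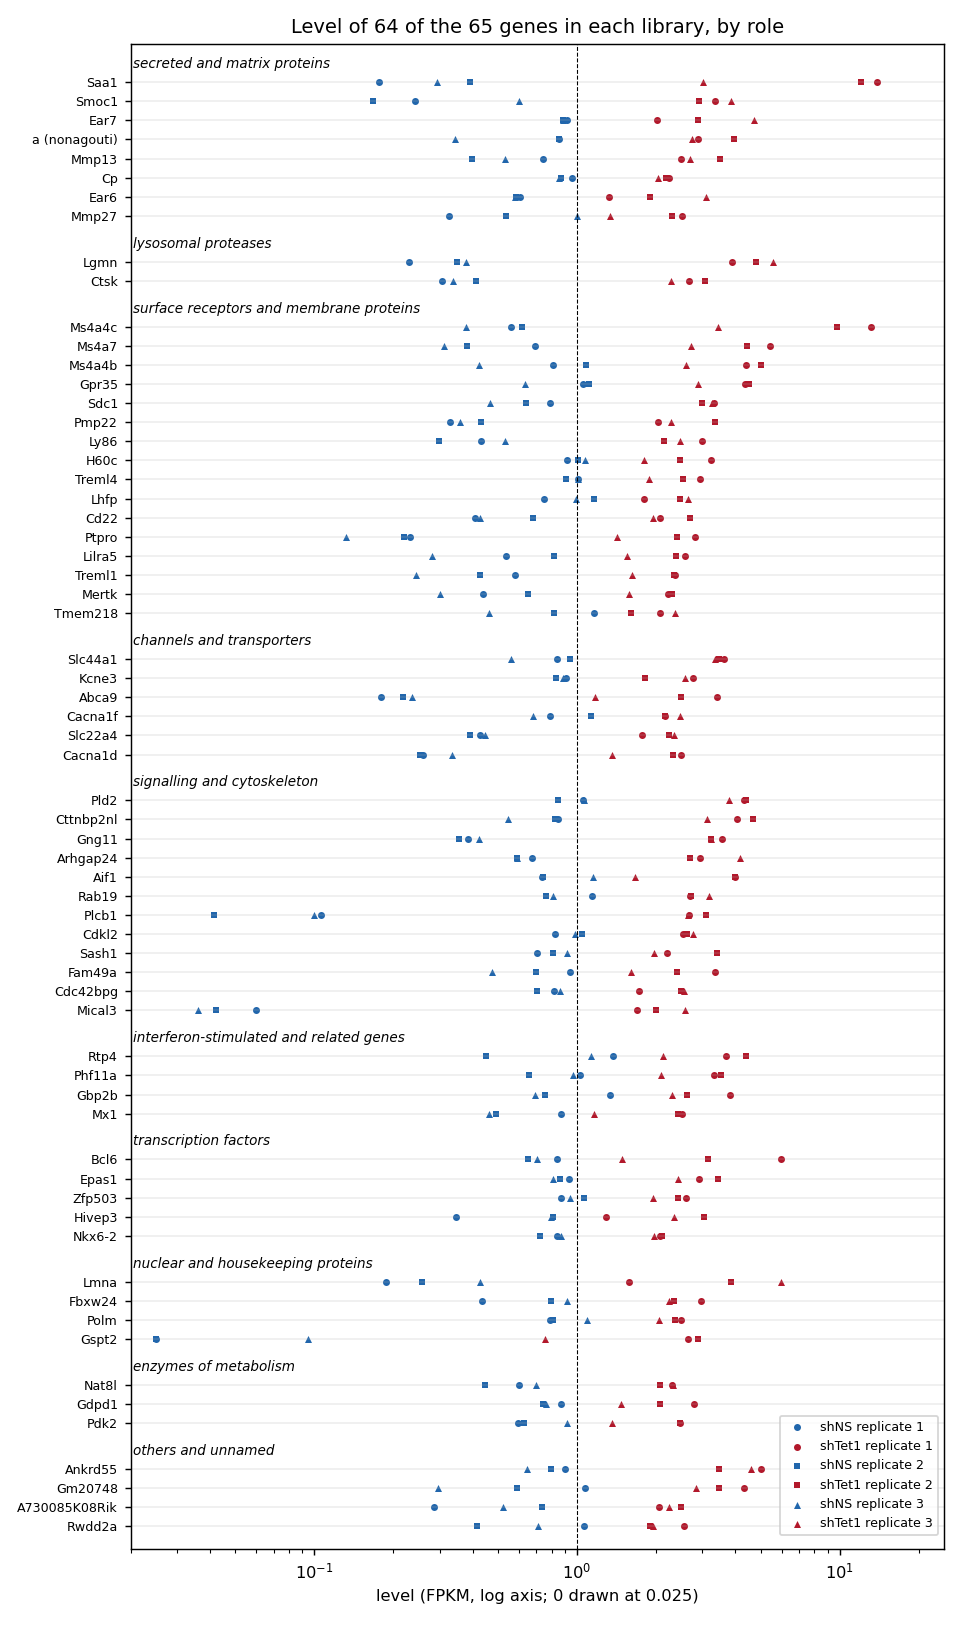
FPKM of 64 of the 65 genes in each library on a log axis, grouped by role; blue is shNS, red is shTet1, and circles, squares and triangles are replicates 1, 2 and 3, with the dashed line at 1 FPKM. Red triangles are often leftmost among the red points, as for Saa1 at 3.01 FPKM, whereas for Lmna at 5.99 FPKM the triangle is rightmost.

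Knockdown replicate 3 stood apart from the other knockdown libraries for many of these genes. It was the lowest of the 3 shTet1 libraries for 40 of 65 (61.5%), against 51.9% of all genes higher in shTet1 by limma and 28.7% of all genes tested. Its level over the mean of replicates 1 and 2 had a median of 0.817 among the 65, 0.933 among genes higher by limma and 1.03 among genes tested. Genes called by limma are in part selected for a small spread, so these sets are not matched. For 8 of the 65 this ratio was under 0.5, and for 0.887% of all genes higher by limma. Among the 8 were Saa1 (0.233), Gspt2 (0.274), Ms4a4c (0.300), Bcl6 (0.324), Abca9 (0.395), Aif1 (0.416) and Mx1 (0.470). For 19 it was above 1, led by Lmna (2.21) and by the pair Ear6 and Ear7 (1.93). The coefficient of variation over the shTet1 libraries had a median of 21.3% among the 65 and 12.9% among 4036 other tested genes within the same range of shTet1 means; reads per gene were not matched. In the same library the macrophage markers summed to 1604 FPKM, against 2025 and 2042 in replicates 1 and 2, the neutrophil markers to 3064 against 6354 and 4742, and the total was the lowest at 15873632 reads. The part of these in the pattern was not tested. Without replicate 3 of the knockdown the rule takes 71 genes, 61 of them among the 65.

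**Figure D3:**
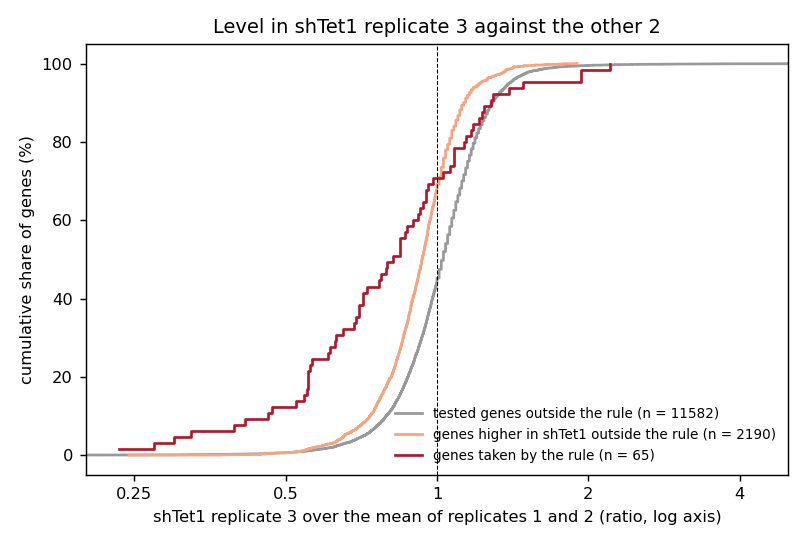
Cumulative share of genes (vertical, %) by the level in shTet1 replicate 3 over the mean of shTet1 replicates 1 and 2 (horizontal, log axis), for the 65 genes in red, the other genes higher in shTet1 in orange and the other tested genes in grey. The red line lies left of the others below a ratio of 1, with its median at 0.817, and has a tail to 2.21.

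Genes next to the 65 were not themselves part of the choice. Some share exonic bases with a chosen gene on the opposite strand, where reads may not be told apart. They include Abhd5, Inpp5a and Hps3, each called higher, beside A730085K08Rik (47.2% of its exonic bases shared), Nkx6-2 (12.9%) and Cp (1.13%). For these the level of the neighbour is not free of the choice. For related neighbours too, the split of reads that fit several copies is uncertain. Among the related ones, Fbxw15 passed the filter through shTet1 alone, at 0.467, 0.436 and 0.317 FPKM in shNS and 2.33, 1.65 and 1.64 in shTet1. The nearest gene of the table on each side within 100 kb, leaving out the 65 themselves, gave 84 genes, of which 70 were tested. By limma, shTet1 was higher for 31 (44.3%) and lower for 14 (20%), against 19.4% and 33.7% of all genes tested. Their median log2 change was 0.11, and that of all genes tested −0.13. Among neighbours of the other genes higher in shTet1, taken in the same way, 31.2% were higher and 26.2% lower. For 58 genes that meet the reverse rule, with a mean below 1 FPKM in shTet1 and at least 2 in shNS and no overlap, 11.1% of 72 tested neighbours were higher and 50.0% lower. These shares were not tested against each other.

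Some of the neighbours were related genes. Taking symbols that share their first 3 letters as related, 10 of 13 tested relatives were higher and 1 lower, while of the other 57 neighbours 21 (36.8%) were higher and 13 (22.8%) lower. The relatives are named after their values were seen. Ctss, the cathepsin beside Ctsk, rose from 114 ± 13.0 to 517 ± 106 FPKM (log2 change 2.16 with SE 0.16 by limma, adjusted p = 7.14e-05). Beside Treml1, Trem2, a lipid-sensing macrophage receptor, rose from 20.5 ± 2.19 to 83.9 ± 9.47 FPKM (log2 change 1.98, limma adjusted p = 4.45e-05). Treml4 had a neighbour on each side that moved in opposite directions, Trem3 by 0.84 and Treml2 by −0.72 on the log2 scale (limma adjusted p = 0.000467 and 0.00310). The metalloproteinases Mmp12, beside Mmp13, and Mmp8, beside Mmp27, rose by 1.77 and 1.84 (limma adjusted p = 5.05e-05 and 0.000177). Gbp2 and Gbp3, around Gbp2b, rose by 1.14 and 0.90, Phf11b, beside Phf11a, by 1.43, and Fbxw15, beside Fbxw24, by 1.02 (limma adjusted p = 0.000118, 0.000322, 0.000171 and 0.000484). Gngt1, beside Gng11, had a log2 change of 0.05 (SE 0.14, limma adjusted p = 0.776). The genes of the table beside Saa1 were Saa4, at 0.258 ± 0.123 and 0.266 ± 0.0588 FPKM and too low to be tested, and Hps5, which rose by 0.33 (limma adjusted p = 0.0223), a call lost without shNS replicate 2 or 3 (0.29 and 0.35).

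Neighbours with other symbols moved in both directions. Il6st, the shared receptor chain of the interleukin-6 family beside Ankrd55, rose from 18.0 ± 1.60 to 64.7 ± 1.81 FPKM (log2 change 1.79 with SE 0.09 by limma, adjusted p = 2.45e-05). Slc37a2, a sugar-phosphate carrier beside Tmem218, rose by 1.5, and Ehd1, a membrane-recycling ATPase beside Cdc42bpg, by 1.30 (limma adjusted p = 0.000102 and 0.000345). Beside Gspt2 and Mical3, which had the largest folds, no tested neighbour was called higher. Maged1, beside Gspt2, was at 6.64 ± 0.622 and 7.20 ± 0.446 FPKM (log2 change 0.10 with SE 0.10 by limma, adjusted p = 0.391). Beside Mical3, Bid, a pro-apoptotic BCL2-family protein, fell from 38.6 ± 1.93 to 26.6 ± 3.91 FPKM (log2 change −0.53, limma adjusted p = 0.00577), and Pex26 was at 1.39 ± 0.312 and 1.04 ± 0.210 FPKM (log2 change −0.23 with SE 0.13 by limma, adjusted p = 0.182). These examples were also chosen after their values were seen.

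**Figure D4:**
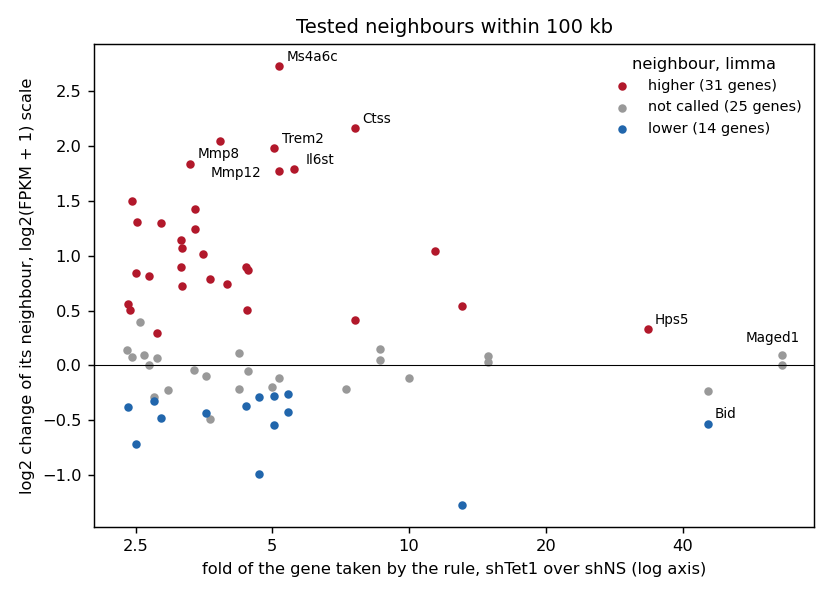
Log2 change of each tested neighbour within 100 kb (vertical, log2(FPKM + 1) scale) by the fold of the gene it lies beside (horizontal, log axis), coloured by its limma call. Of 70 neighbours, 31 lie in the higher and 14 in the lower class; Ms4a6c is the highest at 2.73, and Bid, beside Mical3, lies at −0.53.

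Related genes outside the rule, wherever they lie in the genome, were counted by lists of symbols. Neighbours of the chosen genes were not removed from the lists, so these counts can share genes with the neighbour counts above. Of all genes tested, 19.4% were higher and 33.7% lower, with a median log2 change of −0.13. Among immunoglobulin-like receptors outside the rule, the family of Treml4, Lilra5 and Treml1, 39 of 48 tested were higher and 6 lower, with a median log2 change of 1.15. Its most abundant genes, Lilrb4 and Pira11, rose from 279 ± 18.8 to 642 ± 36.6 and from 147 ± 14.7 to 395 ± 44.8 FPKM (limma adjusted p = 6.20e-05 and 8.84e-05). Among interferon-stimulated genes, the list of Rtp4, Gbp2b and Mx1, 46 of 70 were higher and 5 lower, with a median of 0.61; Ifitm3 rose by 0.98 (limma adjusted p = 0.000461), and Ifitm1 was at 0.28 (limma adjusted p = 0.0664, and 0.00863 with the replicate block). In the list of oxidase, heme and acute-phase genes, which holds Saa1, Cp and the Ear pair, 19 of 32 were higher and 4 lower, with a median of 0.59, and haptoglobin (Hp) rose from 241 ± 36.9 to 779 ± 57.5 FPKM (limma adjusted p = 6.16e-05).

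Other families of the 65 were mixed. Proteases and their inhibitors, the list of Mmp13, Ctsk and Mmp27, had 41 of 112 higher and 34 lower, with a median of −0.00; Ctsd rose by 1.15 (limma adjusted p = 0.000165), and Ctsg was at −0.20 (limma adjusted p = 0.155, and 0.020 with the replicate block). Tetraspan genes, with the Ms4a trio, had 7 of 22 higher and 5 lower (median 0.04), and G-protein-coupled receptors, with Gpr35, 30 of 78 and 20 (0.17). Fpr2, a formyl peptide receptor, rose by 1.73, and Gpr97 fell by 0.78 (limma adjusted p = 0.000379 and 0.000164). Lipid genes, with Pld2 and Abca9, had 37 of 90 higher and 23 lower (0.03), small GTPases and their regulators, with Gng11, Arhgap24 and Rab19, 90 of 254 and 50 (0.10), solute carriers 49 of 187 and 38 (−0.05), and ion channels 45 of 137 and 31 (−0.02). The lower solute carriers numbered 23 without shNS replicate 3 and 25 with median-of-ratios scaling, and the lower ion channels 20 and 16 when shNS replicate 2 or 3 was left out, 18 when shTet1 replicate 2 was, and 18 with that scaling. Lower tetraspan genes numbered 8 without shTet1 replicate 1, and lower G-protein-coupled receptors 13 without shNS replicate 1. Transcription factors had 82 of 570 higher (14.4%) and 168 lower (29.5%), with a median of −0.13; 103 were lower without shNS replicate 3, and with median-of-ratios scaling 107 were higher and 111 lower. Spi1, which encodes PU.1, a master factor of macrophages, was higher by 0.61 (SE 0.19, limma adjusted p = 0.0246), a call lost without shNS replicate 1 or 3 or without shTet1 replicate 2 or 3, when the values were 0.47, 0.64, 0.50 and 0.54.

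Several lists of symbols held none of the 65. A list can miss related genes whose symbols it does not hold, as that of matrix and adhesion genes missed Smoc1 and Sdc1. C-type lectins had 13 of 24 tested genes higher and 1 lower (median 0.75), Toll-like and other pattern receptors 31 of 41 and 6 (0.82), complement genes 9 of 14 and 2 (1.06), and cytokines and chemokines 18 of 40 and 7 (0.46). Their receptors had 35 of 67 higher and 8 lower (0.30), and extracellular matrix and adhesion genes 57 of 87 and 15 (0.45). This last count of higher genes was 31, 32 and 26 without shNS replicates 1, 2 and 3, 26 and 32 without shTet1 replicates 2 and 3, and 26 with a filter of 5 FPKM. Lower C-type lectins numbered 3 without shTet1 replicate 1 and 2 with the replicate block. Germline genes, many of which carry methylated promoters in somatic cells, also held none, with 4 of 25 tested genes higher, 2 without shNS replicate 2 or 3, and 11 lower (−0.15); the symbol patterns of this list also caught the ubiquitous helicase genes Ddx46 and Ddx42.

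Promoter composition was compared for the 52 of the 65 genes with an entry in the RefSeq promoter table (300 bases, from 250 before to 50 after the start). The ratio of observed to expected CpG had a median of 0.36, and 20 genes (38.5%) were at 0.6 or more. This share was 72.9% among other genes tested, 58.1% among other genes higher in shTet1, 43.5% among other genes below 1 FPKM in shNS and 46.5% among the genes of the reverse rule. The share among the chosen genes was nearest to those of the other low-level genes, and the shares were not tested against each other. Over all 27025 promoters of the promoter table, 1 per gene, the median ratio was 0.39, near that of the chosen genes. Using the most CpG-rich start of each gene, an alternative chosen after seeing the data, 23 of 52 were at 0.6 or more. Ms4a4c, Ms4a4b, Gpr35 and Phf11a held 0 CpG in the 300 bases, whereas Bcl6 (1.05), Nkx6-2 (0.97) and Slc44a1 (0.93) had ratios near 1. Of the 4 genes with the largest folds, Mical3 (0.62) and Plcb1 (0.74) were CpG-rich, Saa1 (0.09) was CpG-poor and Gspt2 had no entry.

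**Figure D5:**
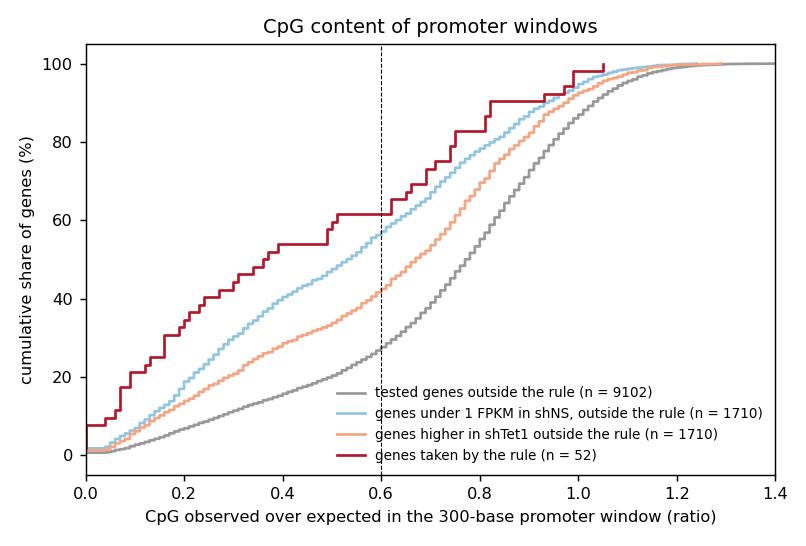
Cumulative share of genes (vertical, %) by the ratio of observed to expected CpG in the 300-base promoter window (horizontal), with the dashed line at 0.6. The 52 genes with an entry (red) lie left of the other genes below 1 FPKM in shNS (blue), the other genes higher in shTet1 (orange) and the other tested genes (grey), with medians of 0.36, 0.53, 0.67 and 0.77.

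Short motifs were searched on both strands of the same 300 bases. The IRF-type repeat occurred in 5 of 52 promoters (9.62%), those of Gbp2b, Phf11a, Aif1, Mmp13 and Rab19. It occurred in 3.16% of the promoters of the other 10776 genes of the table that had an entry. The AP-1 motif TGANTCA occurred in 6 (11.5%, against 5.33%), and the C/EBP motif TTGCNNAA in 7 (13.5%, against 8.71%), including Saa1. The PU.1 core GAGGAAG occurred in 9 (17.3%, against 13.7%), the composite of ETS and IRF motifs in 3 (5.77%, against 2.42%) and the TATA box TATAAA in 4 (7.69%, against 7.5%). The GC box GGGCGG occurred in 18 (34.6%, against 61.2%), and the E-box CACGTG in 4 (7.69%, against 9.99%), of which 2 were the longer M-box TCACGTG (3.85%, against 5.87%). The NF-kB motif searched occurred in 0 of 52 and in 0.390% of those other genes of the table. Over all 27025 promoters of the promoter table, the GC box occurred in 35.9% and the TATA box in 14.2%. There the IRF-type repeat occurred in 3.49%, the AP-1 motif in 7.92% and the C/EBP motif in 10.7%. With counts this small no share is set apart from the others.

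Near the thresholds, small steps decided which genes were taken. Just inside 1 FPKM in shNS were H60c at 0.999 and Pld2 and Rtp4 at 0.983 each, and just outside were Tmem53 at 1.005, Gamt at 1.007 and Gm11710 at 1.012. Just inside 2 FPKM in shTet1 were Tmem218 at 2.001, Mertk at 2.026 and Mx1 at 2.037, and just outside were Pla2g2e at 1.997, Traf5 at 1.977 and Asah2 at 1.975.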

How the data were processed

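RNA from 3 shNS and 3 shTet1 libraries was measured, and titles gave the group and replicate number of each. The authors deposited 1 table (13839 genes) whose 6 per-library columns were read as FPKM; this unit is inferred, since the header does not give it. The deposited group means are signal (reads over a size factor); per the file headers, the fold (a ratio), log2 fold, p-value and adjusted p-value come from the authors' test and are used where the authors' deposited table is named. Per the submitters' processing notes, the genome was GRCm38; the aligner is not given in the sources used here, nor is the counter. Dividing FPKM by the value of 1 read gave whole reads for 100.0% of values within 0.001 read. Symbols turned into dates or blank were resolved by gene ID (34).

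limma 3.58.1 (R 4.3.3) with an intensity trend was fitted to log2(FPKM + 1) over the 11646 genes that reached 1 FPKM in 3 or more libraries, group as the sole term, two-sided, with Benjamini-Hochberg adjusted p under 0.05. Changes on this scale understate those of low genes. limma-voom on recovered reads (10 or more in 3 or more libraries) was an alternative; the others were scaling, pseudocount, filters, the replicate block, thresholds of the rule, the neighbour distance and leaving out each library. The fit was also run on simulated reads that had the same spread setting for every gene and no replicate effect. The real libraries differ in this, so nothing about them is read from that run. Intervals of read ratios are exact 95% intervals. Positions and promoters are RefSeq GRCm38.p6, in which 64 of the 65 genes were placed and 52 had a promoter; of several starts in the promoter table the most upstream was used, which need not be the first base of the gene. Exon overlap used GENCODE.

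The genes, lists and roles were chosen with earlier results of these data known. Lists were made from symbol patterns, which can catch unrelated symbols, and roles were set by hand. Named genes were the 12 highest in shTet1, up to 3 per list, all transcription factors, those nearest each threshold, Tet1, and up to 2 other tested genes per list with the highest mean; not all of the last are printed. Other names were chosen after their values were seen. A gene named by this rule is not reported here.

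Around the group means, libraries with the same number correlated across genes at 0.61, 0.36 and 0.21, and other combinations gave −0.52 to 0.34. The numbers may pair the libraries, but shTet1 replicate 3 correlated more with shNS replicate 2 (0.34) than with shNS replicate 3 (0.21). Calls come from the fit without the block. Where the block was checked for a named gene outside the rule, the blocked value stands beside each call it changes. Genes are not independent replicates.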

Additional observations from a re-analysis of the deposited data

How the results depend on the processing

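Median-of-ratios scaling moved the median log2 change of all genes from −0.13 to −0.01 and the calls from 2254 higher and 3925 lower (36.5 to 63.5%) to 2895 and 2743 (51.3 to 48.7%). Under it 8 neighbours were lower in place of 14, 34 were higher, and the rule took 83 genes, all 65 among them. Leaving out 1 library at a time gave 1698 to 2181 genes higher and 2676 to 4007 lower, 513 to 628 list genes higher and 294 to 472 lower (636 and 432 with all), 26 to 29 neighbours higher and 7 to 16 lower, the 7 being without shNS replicate 3, and a rule count of 59 to 71, of which 52 to 63 were among the 65. With the replicate block, 2692 genes were higher and 4780 lower, and 32 neighbours higher and 17 lower. Ifitm1 (0.28) and Ctsg (−0.20) passed the threshold under it, and no other printed call changed among the 58 named genes outside the rule that were tested. Single calls of other markers and neighbours were not checked with it. Changing the rule to an shNS mean below 0.5 FPKM took 19 genes, to an shTet1 mean of at least 5 took 2, to at least 1 took 213, and to an shNS mean below 2 took 229. The log2 change of Gngt1 ran from −0.06 to 0.17 when 1 library was left out, and its sign turned without shNS replicate 1 (−0.06) and without shTet1 replicate 3 (−0.01). Of 687 alternative values for 58 named genes outside the rule, 655 kept direction and side of the threshold, 22 lost the call, 8 gained it and 2 turned. All 65 were called higher by limma-voom, where 18.6% of all genes tested were, and without a filter, where 17.8% were. Since the choice used the same values, nothing is read from these counts. None passed a filter of 5 FPKM, and 19 passed the main filter without any 1 shTet1 library. The low read counts of the control libraries limit the precision of every fold above. The cause of these shifts was not tested.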
